A study of Mus musculus and Homo sapiens with 176 samples.

Results

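The mitochondrial ribosomal protein genes were taken as every feature of the deposited gene tables whose symbol starts with Mrpl or Mrps followed by a digit. This rule used names only and gave 77 genes of 24854 features, 48 with a large-subunit symbol (Mrpl) and 29 with a small-subunit symbol (Mrps). The study compared neuronal and glial chromatin and RNA between mouse prefrontal cortex (PFC) and cerebellum with a low-input microfluidic assay. The 8 RNA libraries used here came from 1 C57BL/6 mouse, labelled M3, of a group aged 8 to 10 weeks. They form 4 groups with 2 libraries each: PFC NeuN+, PFC NeuN-, cerebellum NeuN+ and cerebellum NeuN- nuclei. No transgene, deletion or drug is named for any group. NeuN is the neuronal nuclear antigen encoded by Rbfox3, and the nuclei were stained for it and sorted, which makes this nuclear RNA with whatever stuck to the nuclei. Nothing in the labels says that replicates 1 and 2 of a group were separate preparations, so p-values here measure only how these libraries scatter, which may be technical, and say nothing of differences among mice. The other 168 samples of the series were not analysed here.

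Mitochondria carry their own ribosome, which translates the few membrane proteins encoded by the mitochondrial genome, all of them parts of the oxidative phosphorylation complexes. Its RNAs come from the mitochondrial genome, but every protein of it is encoded in the nucleus, made on cytosolic ribosomes and imported. The large subunit holds the peptidyl transferase centre, the exit tunnel and a flexible stalk that recruits elongation factors, and the small subunit holds the decoding centre and the channel for the message. Many of the proteins descend from bacterial ribosomal proteins, and others are found only in mitochondria. Symbols do not always give the place of a protein: Mrps18a and Mrps30 sit in the large subunit, and Mrps36 is now known as a part of the 2-oxoglutarate dehydrogenase complex.

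All 77 genes were detected in every library, at 2.661 to 344 FPKM (fragments scaled by transcript length and by the size of the library), and all passed the filter of at least 1 FPKM in at least 2 libraries that left 14376 features for testing. Their median level stood at the 89.69 percentile of the features tested. The median coefficient of variation between the 2 libraries of a group was 3.12% to 4.39%. The deposited confidence intervals were wider, with a median half-width of 6.32% to 9.44% of the value, and up to 29.01% for a single value. FPKM hold no read totals, so the depth of the libraries is unknown here.

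The gates and regions were checked on marker genes before the results were read. Rbfox3 stood at 16.2 and 15.7 FPKM in PFC NeuN+, 14.2 and 12.3 in PFC NeuN-, 123 and 119 in cerebellum NeuN+, and 33.3 and 34.5 in cerebellum NeuN-. Oligodendrocyte markers were lower in NeuN+ for 7 of 7 genes in each region, and so were astrocyte markers. Granule cell markers summed to 677.0 and 678.9 scaled FPKM in cerebellum NeuN+, to 196.4 and 194.7 in cerebellum NeuN- and to at most 7.795 in any PFC library. Purkinje cell markers differed less between the cerebellar gates, with sums of 1360 and 1304 in NeuN+ and 1166 and 1224 in NeuN-. Of the 4 Purkinje markers, 1 was higher in cerebellum NeuN+ and 3 were not called. Cortical neuron markers were higher in PFC NeuN+ for 7 of 8 genes and lower for 0 (median log2 change 0.629). They summed to 117.6 and 120.6 scaled FPKM in NeuN+ and 75.29 and 78.64 in NeuN-. Gad1, the gene not called, was the largest part of each sum, at 58.7 and 59.4 FPKM against 61.7 and 65.9. Slc32a1 of this list was higher in cerebellum than in PFC in both gates. Of 10 general neuronal markers, 8 were higher in cerebellum NeuN+ and 1 lower. They gave a mixed picture in PFC: 2 of 10 were higher in NeuN+ and 5 lower. Their sum in PFC was 1517 and 1501 in NeuN+ against 1907 and 2032 in NeuN-, most of it Snap25 (980.2 and 976.4 against 1579 and 1664 FPKM). The PFC NeuN- libraries stood apart in another list too, since 6 nuclear long RNAs (Meg3, Neat1, Snhg11, Miat, Rian and Mirg) summed to 142.9 and 141.4 scaled FPKM there, 1456 and 1454 in PFC NeuN+ and 834.9 to 944.9 in cerebellum. In PFC 5 of the 6 were higher in NeuN+, such as Meg3 with 480.2 and 476.7 FPKM against 11.98 and 11.64 in NeuN-. Neat1 went the other way, with 0.767 and 1.12 FPKM in PFC NeuN+ against 125.5 and 120.6 in PFC NeuN-, where it made up most of the sum. The total FPKM of the PFC NeuN- libraries was also the highest, 426851 and 414230 against 289350 to 307198 in the other 6 libraries. Blood markers stood apart in PFC NeuN+, with sums of 281.7 and 277.0 scaled FPKM against 699.9 to 869.9 in the other 6 libraries. The part that these differences play in the results below was not tested. In nuclei pooled from many cells, fewer cells of a type and less RNA per cell cannot be told apart.

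Levels varied more between genes than between groups. By the mean over the 8 libraries, the highest large-subunit gene was Mrpl27, the counterpart of a bacterial protein next to the peptidyl transferase centre, at 136 and 132 FPKM in PFC NeuN+, 279 and 259 in PFC NeuN-, 149 and 144 in cerebellum NeuN+, and 125 and 123 in cerebellum NeuN-. Within cerebellum, Mrpl23 was higher than Mrpl27 in NeuN+ and Mrpl33 in NeuN-. By the same mean, the highest small-subunit gene was Mrps21, at 174 and 152 FPKM in PFC NeuN+, 344 and 291 in PFC NeuN-, 336 and 338 in cerebellum NeuN+, and 258 and 272 in cerebellum NeuN-. At the low end, Mrps30 ran from 2.66 to 13.1 FPKM and Mrpl17 from 3.70 to 7.08. Between the groups, the highest scaled mean of a gene was a median of 1.792 times its lowest, with 28 genes at 2 times or more and 8 at 3 times or more. PFC NeuN- held the highest mean for 46 of the 77 genes, cerebellum NeuN+ for 15, PFC NeuN+ for 10 and cerebellum NeuN- for 6. Cerebellum NeuN- held the lowest mean for 33 genes and PFC NeuN+ for 23. This ranking was taken only as scaled here, with no share of all features beside it. The scaled FPKM of all features tested also summed highest in PFC NeuN-, at a mean of 368100 against 296900 to 315000 in the other groups.

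**Figure D1:**
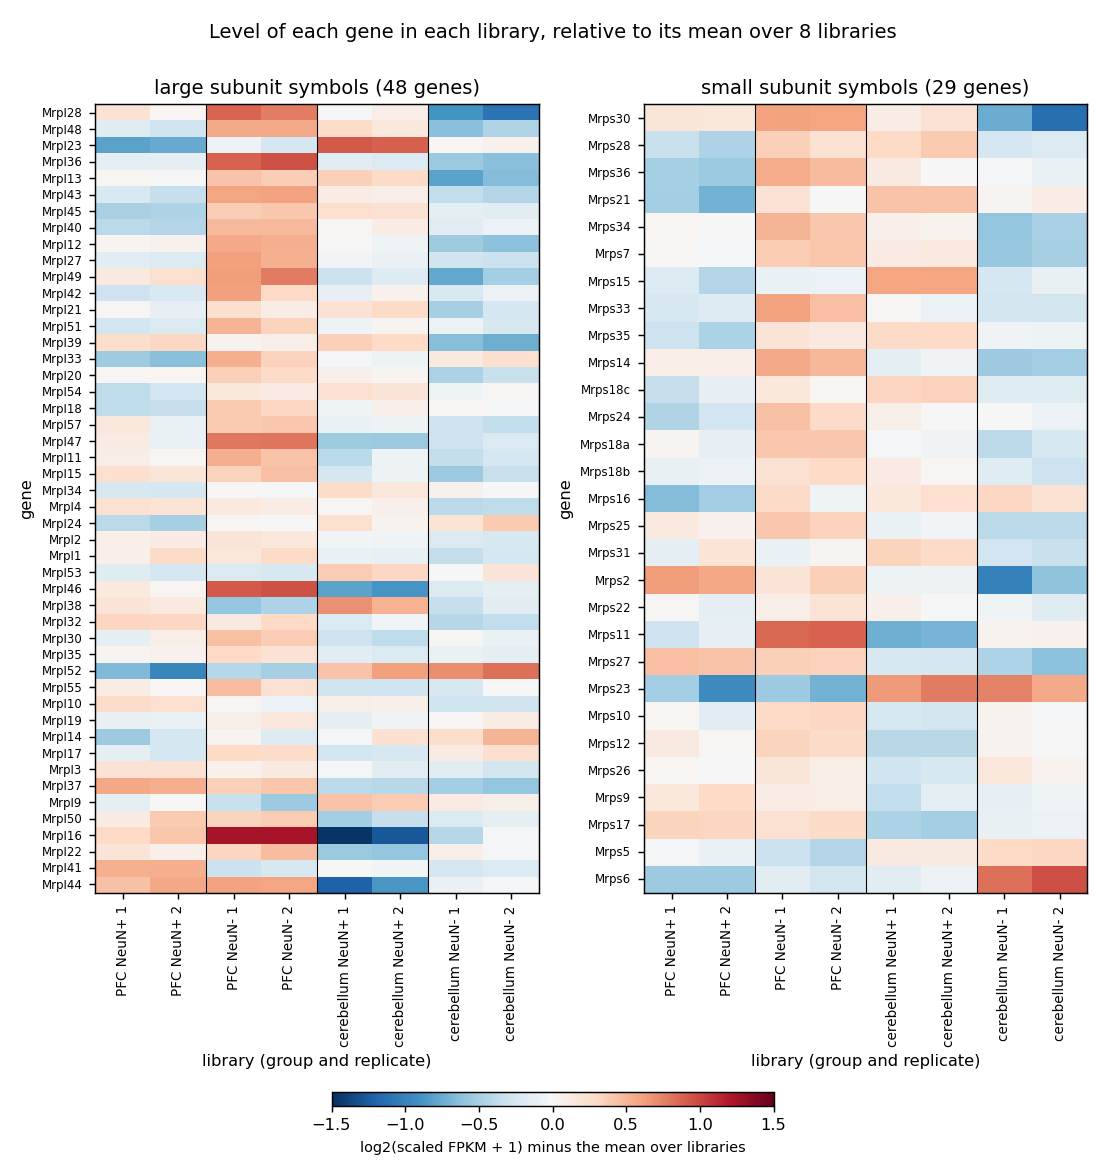
Level of each Mrpl gene (left, 48 genes) and Mrps gene (right, 29 genes) in the 8 libraries, as log2(scaled FPKM + 1) minus the gene's mean over the libraries, with colours ending at 1.5 in either direction and rows ordered by the difference between the NeuN changes of cerebellum and PFC. The PFC NeuN- columns are red in most rows, and the replicates of a group look alike.

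In PFC, mitochondrial ribosomal protein genes stood lower in NeuN+ than in NeuN- nuclei. In limma's test, 52 of the 77 genes were lower in NeuN+ and 7 higher, where over all features tested 37.6% were lower and 35.0% higher. Their median log2 change was -0.361 against -0.011 over all features. For 72 of the 77 genes the libraries of the gates did not overlap, as was so for 85.9% of all features. The size of this shift depends on how libraries are scaled, but its direction held: relative to the median of all features it was -0.351 as scaled here, -0.401 with FPKM unscaled, -0.291 with FPKM brought to a common sum and -0.263 with quantile normalization. The median of all features itself moved from -0.193 to 0.143 over these scalings. Higher and lower calls were 16 and 34 with a common sum, and 32 of the 52 genes were called lower under all 4 scalings. Shares of all features were taken only as scaled here. Counts under other scalings, here and below, therefore have no background beside them.

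The largest falls in PFC NeuN+ were those of Mrps11, Mrpl36, Mrps36, Mrpl33 and Mrpl40. Mrps11, which lies on the platform of the small subunit (chr7:85928017-85937874, mm9), stood at 21.0 and 24.1 FPKM in PFC NeuN+ and at 57.7 and 57.5 in PFC NeuN-, a log2 change of -1.08 ± 0.07 (SE; limma adjusted p = 1.3e-05). Mrpl36, the counterpart of a very small bacterial protein (chr13:73468457-73469626), had 46.0 and 45.8 FPKM against 112.6 and 115.9, a change of -1.06 ± 0.05. Mrps36, the dehydrogenase subunit, had 39.1 and 37.5 FPKM against 98.3 and 91.2, a change of -1.05 ± 0.06. In each of these genes both NeuN- libraries lay far above both NeuN+ libraries. Mrpl33 had 95.8 and 90.0 FPKM against 243.7 and 207.9 (-1.03 ± 0.08), and Mrpl40, a protein of the central protuberance, had 33.1 and 32.5 against 74.0 and 72.7 (-0.90 ± 0.05).

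The 7 genes higher in PFC NeuN+ were Mrpl41, Mrpl38, Mrpl9, Mrps5, Mrpl10, Mrpl39 and Mrpl37. Mrpl41 (chr2:24827990-24830618), a mitochondria-specific protein, stood at 136.5 and 137.6 FPKM in PFC NeuN+ and at 89.9 and 93.0 in PFC NeuN-, a log2 change of 0.81 ± 0.05 (limma adjusted p = 9.9e-06). Its locus overlaps that of Dph7 over 38.11% of its length, so fragments of the neighbour may be counted in it. Mrpl38, of the central protuberance (chr11:115993131-116000182), had 51.0 and 49.3 FPKM against 34.9 and 37.3, a change of 0.69 ± 0.08 (adjusted p = 3.1e-04). These were the only 2 members called higher in PFC under all 4 scalings. The others changed by 0.18 to 0.37, and with FPKM unscaled none of those 5 was called higher and Mrpl37 and Mrpl39 stood at -0.058 and -0.004.

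In cerebellum the genes went mostly the other way. There 43 of the 77 genes were higher in NeuN+ and 16 lower, beside 32.4% higher and 39.2% lower over all features. The median log2 change was 0.217 against -0.038, and the libraries of the gates did not overlap for 70 genes, beside 85.4% of all features. When 1 cerebellar library was left out, the higher calls numbered 33 to 37 and the lower calls 11 to 13. Relative to all features, the median stayed above 0 under each of the 4 scalings, at 0.110 with quantile normalization and 0.254 to 0.256 with the others. Under all of them 42 genes were called higher and 15 lower.

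The largest rises in cerebellum NeuN+ were those of Mrps30, Mrpl28, Mrpl13, Mrpl39 and Mrpl23. Mrps30, a large-subunit protein despite its symbol (chr13:119168917-119176059), stood at 7.53 and 8.29 FPKM in cerebellum NeuN+ and at 3.76 and 2.66 in cerebellum NeuN-, a log2 change of 1.099 ± 0.12 (limma adjusted p = 2.3e-04). Mrpl28 (chr17:26260448-26263558) had 49.8 and 53.4 FPKM against 26.2 and 22.6, a change of 1.06 ± 0.09. Mrpl13, one of the proteins conserved from bacteria (chr15:55365650-55388867), had 44.8 and 42.9 FPKM against 19.5 and 22.1, a change of 1.04 ± 0.07. In these genes cerebellum NeuN- held the lowest 2 libraries of the 8. Mrpl39 rose by 1.01 ± 0.06, from 5.90 and 5.51 FPKM in NeuN- to 12.7 and 12.2 in NeuN+, the latter at the level of PFC (11.8 to 12.3 FPKM in its 4 libraries).

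The largest falls in cerebellum NeuN+ were those of Mrpl16, Mrps6, Mrpl44, Mrps11 and Mrpl46. Mrpl16, at the core of the large subunit (chr19:11844905-11849436), had 4.96 and 5.84 FPKM in cerebellum NeuN+ against 11.3 and 15.3 in NeuN-, a log2 change of -1.15 ± 0.14 (limma adjusted p = 2.8e-04). In PFC it had 19.0 and 20.8 FPKM in NeuN+ and 44.7 and 43.9 in NeuN-, so that its highest group mean was 7.01 times its lowest. The next widest range was that of Mrpl28, at 3.62 times. Mrps6 (chr16:92058581-92112472), a platform protein of the small subunit, had 23.3 and 24.9 FPKM against 47.4 and 52.8, a change of -1.02 ± 0.07. Its locus overlaps that of Slc5a3 over 54.07% of its length, although the overlapping gene was listed at a mean of 0.945 scaled FPKM. Mrpl44 (chr1:79772593-79778020), a protein with a fold of the ribonuclease III family, had 8.94 and 11.8 FPKM against 20.6 and 21.9, a change of -0.98 ± 0.11.

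**Figure D2:**
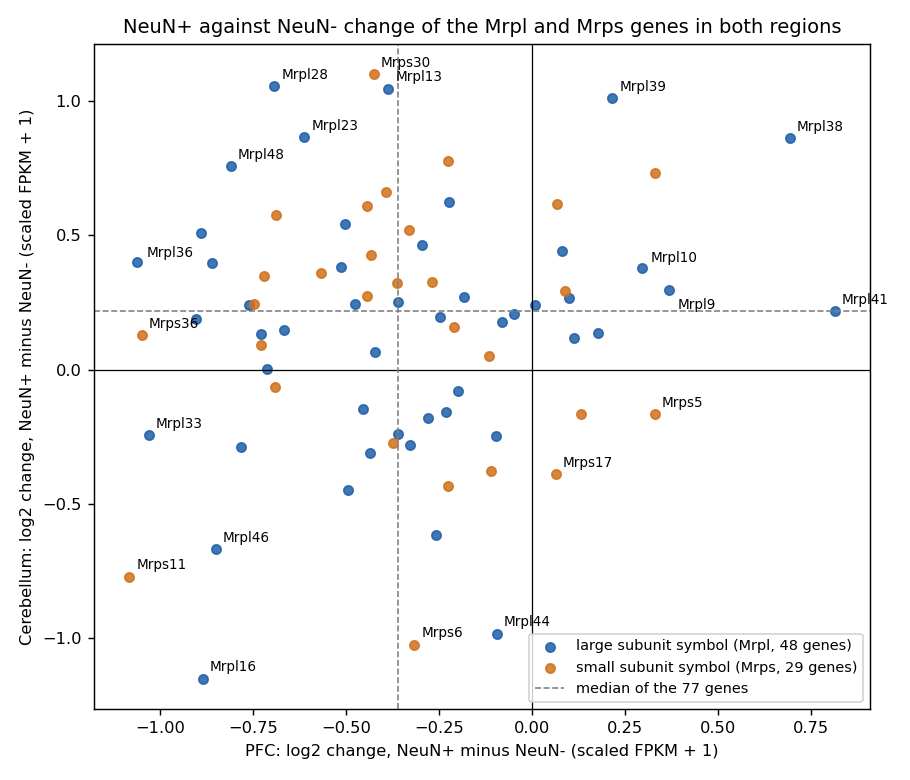
Log2 change of each of the 77 genes between NeuN+ and NeuN- nuclei in PFC (horizontal) and cerebellum (vertical), on log2(scaled FPKM + 1), with large-subunit symbols in blue, small-subunit symbols in orange and the medians of all 77 genes (-0.361 and 0.217) as dashed lines. The upper left field, lower in PFC NeuN+ and higher in cerebellum NeuN+, is the fullest.

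Set side by side, 28 genes were called lower in PFC NeuN+ and higher in cerebellum NeuN+, a combination found in 8.48% of all features, and 19 of them were called so under all 4 scalings. A further 12 were lower in NeuN+ in both regions (20.3% of all features): Mrpl16, Mrpl17, Mrpl19, Mrpl22, Mrpl30, Mrpl33, Mrpl46, Mrpl47, Mrps6, Mrps10, Mrps11 and Mrps12. Of these, 6 were called so under all 4 scalings (Mrpl16, Mrpl17, Mrpl33, Mrpl46, Mrpl47 and Mrps11), and Mrps12 stood at 0.054 in PFC with quantile normalization. Higher in NeuN+ in both regions were 6 large-subunit genes (15.2% of all features): Mrpl9, Mrpl10, Mrpl37, Mrpl38, Mrpl39 and Mrpl41. Of the 6, Mrpl38 and Mrpl41 were called so under all 4 scalings. Mrps5, of the entry to the message channel, was the only member higher in PFC NeuN+ and lower in cerebellum NeuN+ (9.60% of all features), at 27.2 and 25.6 FPKM in PFC NeuN+, 25.9 and 23.3 in PFC NeuN-, 30.5 and 30.6 in cerebellum NeuN+, and 34.2 and 34.7 in cerebellum NeuN-. As deposited, its PFC gates differ little, and with FPKM unscaled it was not called in PFC.

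The difference between the 2 NeuN changes was tested directly. It was positive, with a higher NeuN+ to NeuN- ratio in cerebellum than in PFC, for 45 of the 77 genes and negative for 8, beside 33.1% and 37.0% of all features. Its median was 0.486 against -0.056, and relative to all features it was 0.374 to 0.583 over the 4 scalings. Without replicate 1 of PFC NeuN+ the negative calls numbered 5. Mrpl28 had the largest difference, 1.75 ± 0.13 (limma adjusted p = 5.6e-05), with 57.4 and 50.5 FPKM in PFC NeuN+ and 108.7 and 98.3 in PFC NeuN- beside the cerebellar values above. Mrpl48, of the central protuberance, followed at 1.57 ± 0.11, from 84.4 and 77.8 against 170.0 and 166.9 FPKM in PFC to 117.4 and 108.8 against 62.3 and 71.1 in cerebellum. Mrps30 stood at 1.53 ± 0.18, Mrpl23 at 1.48 ± 0.09 and Mrpl36 at 1.46 ± 0.07. In Mrpl23, Mrpl28, Mrpl48 and Mrps30 the order of the gates turned over between the regions with no overlap of libraries. Mrpl36 was likewise called lower in PFC NeuN+ and higher in cerebellum NeuN+. Negative differences were smaller, the largest being those of Mrpl44 (-0.89 ± 0.16), Mrps6 (-0.71 ± 0.09) and Mrpl41 (-0.60 ± 0.07). RefSeq lists pseudogenes of Mrpl23, Mrpl27, Mrpl48 and Mrps36, so part of the fragments of these genes may be split with copies.

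The stalk genes and the Mrps18 paralogs showed how members of 1 structure can differ or move alike. Mrpl12, the factor-binding protein of the stalk, had 105.5 and 106.9 FPKM in PFC NeuN+, 181.5 and 174.4 in PFC NeuN-, 102.5 and 99.1 in cerebellum NeuN+, and 70.9 and 67.2 in cerebellum NeuN-. Mrpl10, which anchors it, had 17.1 and 16.8, 16.9 and 15.4, 15.1 and 15.0, and 11.3 and 11.4 FPKM in the same order. Mrpl12 fell in PFC NeuN+ by 0.50 on the log2 scale and rose in cerebellum NeuN+ by 0.54, whereas Mrpl10 rose in both, by 0.29 and 0.38. The PFC rise of Mrpl10 was not called with FPKM unscaled. The paralogs of 1 bacterial small-subunit protein moved alike: Mrps18a, Mrps18b and Mrps18c changed by -0.44, -0.36 and -0.33 in PFC and by 0.27, 0.32 and 0.52 in cerebellum, all called, although Mrps18a sits in the large subunit. None of the 3 was called lower in PFC under all 4 scalings, whereas their rises in cerebellum were.

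Between regions, NeuN+ nuclei showed no common direction. In NeuN+, 32 genes were higher in cerebellum than in PFC and 30 lower, beside 36.5% and 40.7% of all features, with a median log2 change of 0.032 against -0.026. The libraries did not overlap for 69 genes, beside 87.8% of all features. With quantile normalization the split was 37 higher and 19 lower. Mrpl23 (chr7:149719022-149726647), whose bacterial counterpart lies at the exit tunnel, rose most, from 65.3 and 67.7 FPKM in PFC NeuN+ to 219.7 and 216.9 in cerebellum NeuN+, a log2 change of 1.69 ± 0.07 (limma adjusted p = 1.3e-06). Mrps23 followed with 1.45 ± 0.15, then Mrpl52 (1.35 ± 0.12), Mrps21 (1.04 ± 0.09) and Mrps15 (0.92 ± 0.08). Mrpl16 (-1.72 ± 0.14) and Mrpl44 (-1.55 ± 0.11) fell most, the latter from 30.1 and 33.3 FPKM to the cerebellar values above. Mrpl37, a mitochondria-specific protein, fell from 65.7 and 64.5 to 33.1 and 32.8 FPKM (-0.97 ± 0.04).

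In NeuN- nuclei the genes were mostly lower in cerebellum. Here 57 genes were lower than in PFC and 10 higher, beside 39.0% and 40.5% of all features, with a median log2 change of -0.518 against 0.022. The libraries did not overlap for 71 genes, beside 89.8% of all features. Relative to all features the median was -0.290 to -0.607 over the 4 scalings, and 38 genes were called lower and 5 higher under all of them. Higher and lower calls were 18 and 39 with a common sum. Without replicate 2 of cerebellum NeuN- the higher calls numbered 6. Mrpl28 fell most, by 1.82 on the log2 scale, followed by Mrps30 (-1.54), Mrpl36 (-1.52), Mrpl16 (-1.46) and Mrpl49 (-1.34). Mrps23 stood out in the other direction, with 11.2 and 9.68 FPKM in PFC NeuN- and 24.5 and 21.7 in cerebellum NeuN- (1.28 ± 0.15), and so did Mrpl52, with 57.9 and 53.7 against 107.6 and 118.5 (1.23 ± 0.12). Mrps6 rose by 1.12 ± 0.07. Mrps23 and Mrpl52 were thus higher in cerebellum in both gates, while between the gates of cerebellum they changed by 0.05 ± 0.15 (limma adjusted p = 0.80) and -0.24 ± 0.12 (adjusted p = 0.11), short of the threshold. The comparisons between regions share their libraries with the comparisons between gates. PFC NeuN- is the group that also stood apart in nuclear long RNAs and total FPKM, and it enters the comparisons with the largest median shifts. PFC NeuN+, which stood apart in blood markers, enters the comparison of the PFC gates, that of NeuN+ between regions and the difference of the NeuN changes. Microglia markers differed in PFC NeuN-, with 5 of 5 tested lower in cerebellum NeuN-. They summed to 251.7 and 259.0 scaled FPKM in PFC NeuN- against 17.4 and 18.1 in cerebellum NeuN-. The part of these differences in the result was not tested.

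Large-subunit and small-subunit genes had similar medians between the gates of each region. Their median log2 changes in PFC were -0.361 and -0.362, with 31 of 48 and 21 of 29 genes lower, beside 37.6% of all features. In cerebellum they were 0.202 and 0.274, with 27 of 48 and 16 of 29 higher, beside 32.4% of all features. The medians differed more between regions: in NeuN+ that of the large subunit was -0.054 and that of the small subunit 0.125, and in NeuN- they were -0.541 and -0.361. With a common sum or quantile normalization the large-subunit median in NeuN+ was above 0, at 0.023 and 0.048. For the difference of the NeuN changes, the median was 0.402 for the large subunit and 0.625 for the small subunit. The summed FPKM of the Mrpl genes was 1.60 and 1.63 times that of the Mrps genes in PFC NeuN+, 1.60 and 1.63 times in PFC NeuN-, 1.55 and 1.54 times in cerebellum NeuN+, and 1.45 and 1.50 times in cerebellum NeuN-. The cerebellar libraries all lay below the PFC libraries in this ratio. That order was kept with the genes placed by structure, but not in other forms of the ratio: without Mrpl27 and Mrps21, the highest gene of each subunit, cerebellum NeuN+ had the highest mean ratio (1.817, against 1.720, 1.735 and 1.693), whereas cerebellum NeuN- had the lowest mean in every form computed. Between the gates, proteins conserved from bacteria (47 genes) and those found only in mitochondria (29 genes) had similar medians too. These were -0.330 and -0.361 in PFC, and 0.176 and 0.243 in cerebellum. Between regions the 2 classes lay further apart, at -0.056 and 0.171 in NeuN+ and at -0.4 and -0.607 in NeuN-. For the difference of the NeuN changes their medians were 0.401 and 0.614.

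**Figure D3:**
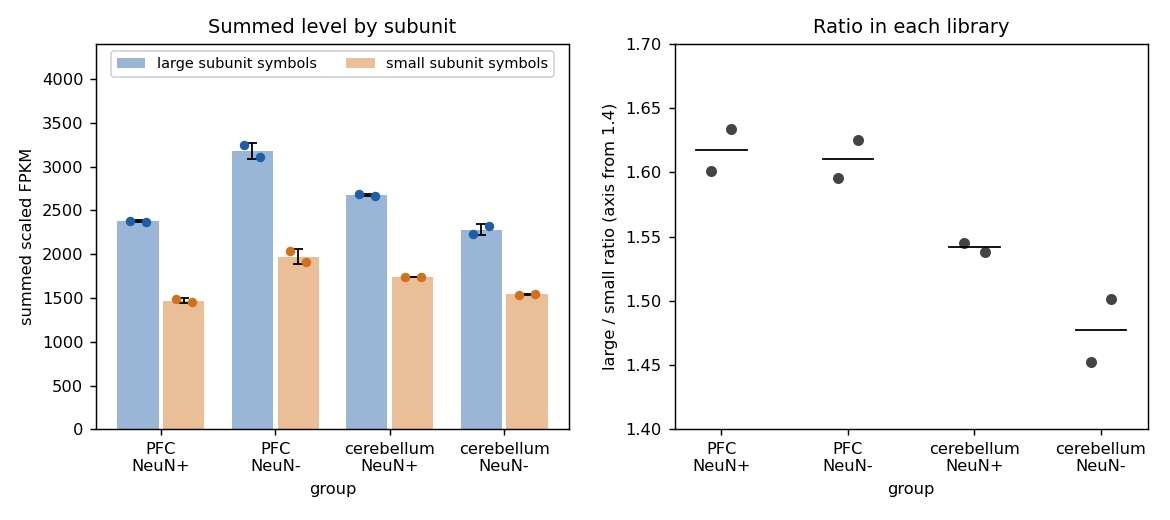
Left, summed scaled FPKM of the Mrpl genes (blue) and Mrps genes (orange) in each group, with bars at the mean, error bars of 1 SD and points for the 2 libraries; right, the ratio of the sums in each library, with a line at the group mean and an axis that starts at 1.4. PFC NeuN- has the highest sums of both subunits, and the ratio runs from 1.45 to 1.63.

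Over all 77 genes the summed scaled FPKM was 3843 ± 39.1 (SD, n = 2) in PFC NeuN+, 5148 ± 178 in PFC NeuN-, 4412 ± 7.58 in cerebellum NeuN+ and 3822 ± 69.2 in cerebellum NeuN-. As a share of all FPKM of a library this was 1.216% and 1.206%, 1.421% and 1.367%, 1.474% and 1.480%, and 1.265% and 1.295% in the same order. By share, cerebellum NeuN+ was therefore the highest group, and PFC NeuN- came next.

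Genes of the same machinery were read beside them. Over all features, 35.0% rose and 37.6% fell in PFC NeuN+, and 32.4% rose and 39.2% fell in cerebellum NeuN+. Cytosolic ribosomal protein genes (78 tested of 81) fell in PFC NeuN+ for 58 genes and rose for 3, with a median of -0.529, and in cerebellum NeuN+ 36 rose and 9 fell (0.225). Nuclear genes of oxidative phosphorylation (82 tested of 84) fell for 72 and rose for 1 in PFC (-0.652), and rose for 49 and fell for 6 in cerebellum (0.315). The medians of these lists and of the mitochondrial ribosomal protein genes thus had the same sign in each gate comparison. Between regions they did not go together: in NeuN+ the medians were 0.647 for cytosolic ribosomal and 0.783 for oxidative phosphorylation genes beside 0.032, and in NeuN- they were 0.015 and -0.107 beside -0.518. In NeuN- the median of the mitochondrial ribosomal protein genes was the lowest of the 3 lists under each of the 4 scalings.

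**Figure D4:**
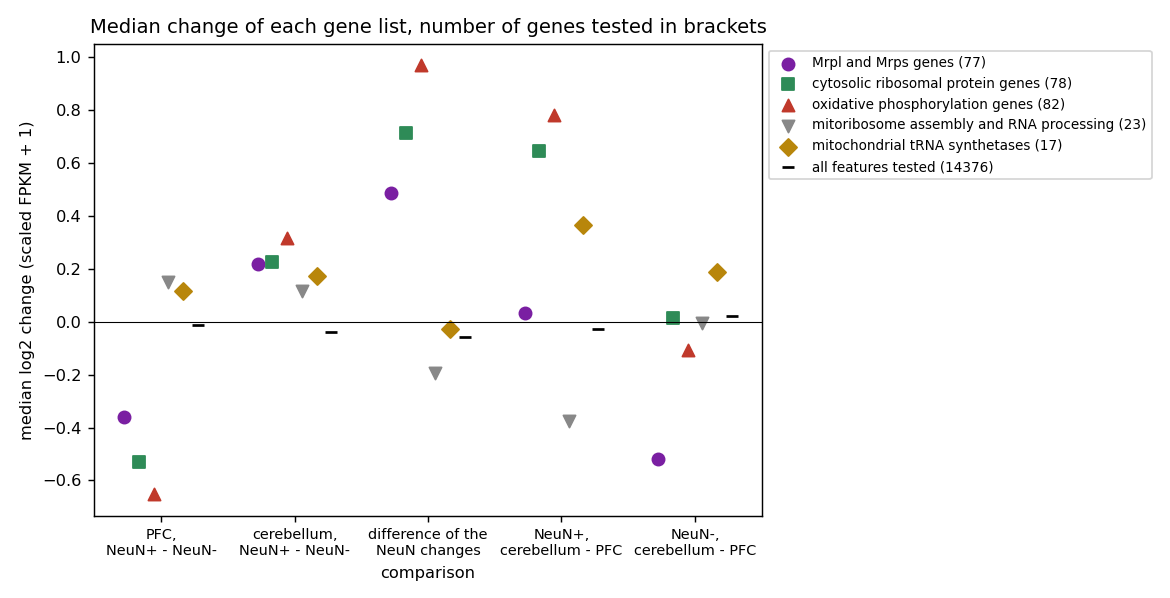
Median log2 change of each gene list (symbols) in the 5 comparisons, on log2(scaled FPKM + 1), with the number of genes tested in brackets and all features tested as a dash. The Mrpl and Mrps genes stand at -0.361, 0.217, 0.486, 0.032 and -0.518 from left to right.

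The factors that act on the mitochondrial ribosome did not share one direction. Over all features, 35.0% were higher and 37.6% lower in PFC NeuN+, and 32.4% and 39.2% in cerebellum NeuN+. Some counts below lay near these shares, such as 35.29% of the synthetases higher in PFC and 39.13% of the assembly factors lower in cerebellum. Of 13 translation factors, 7 were higher and 5 lower in PFC NeuN+ (median 0.365), and 6 higher and 5 lower in cerebellum NeuN+. Tufm, the mitochondrial elongation factor Tu, fell in PFC NeuN+ by 0.51 and rose in cerebellum NeuN+ by 1.50 on the log2 scale, and Tsfm, its exchange factor, fell by 0.90 and rose by 0.49. Guf1, a GTPase related to bacterial LepA, went the opposite way, with 1.25 in PFC and -0.64 in cerebellum. Of 23 assembly and RNA-modifying factors, 11 were higher and 5 lower in PFC NeuN+ (0.152), and 9 higher and 9 lower in cerebellum NeuN+, among them Mterf4 at -2.25 and Gtpbp10 at 1.55. Of 17 mitochondrial tRNA synthetases, 6 were higher and 4 lower in PFC NeuN+, and 8 higher and 2 lower in cerebellum NeuN+. Fars2, which charges the phenylalanine tRNA, changed by -1.16 in PFC and 2.15 in cerebellum, and Yars2, for tyrosine, by -0.29 and 2.14. Of 6 mitochondrial ribosomal proteins with other symbols (Dap3, Ptcd3, Chchd1, Aurkaip1, Gadd45gip1 and Ict1), 4 were lower and 1 higher in PFC NeuN+, and 3 were higher and 2 lower in cerebellum NeuN+. Ptcd3 was the one higher in PFC (0.54), and it rose by 1.32 in cerebellum.

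Promoter sequences were compared because many of these genes start close to a gene read in the opposite direction. RefSeq promoters (build GRCm38.p6, 250 bases before to 50 bases after the start) were matched for 68 of the 77 genes. Of these 68, 26 (38.24%) started within 1000 bases of a gene on the other strand read away from them. This was so for 12.25% of all genes with a RefSeq promoter and 18.85% of the tested genes among them. The ETS-type motif CCGGAAG was present in 25 (36.76%, against 9.93% of all genes with a promoter and 18.07% of the tested ones). The NRF1 motif GCGCATGCG was present in 7 (10.29%, against 1.95% and 3.81%), and the YY1 motif AAGATGGCG in 8 (11.76%, against 1.64% and 3.29%). NRF1 and the ETS family are known as regulators of nuclear genes for mitochondrial proteins. The GC box GGGCGG was present in 34 (50.0%, against 38.2% and 65.41%), and TATAAA in 5 (7.35%, against 15.67% and 9.25%). Both strands were searched for exact matches, the end of the ETS-type motif and the start of the YY1 motif share letters so that their matches can overlap, and a match is a description of letters, not a site of binding.

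Mrps11 and Mrpl46 share 1 such promoter, and their RNA moved alike. Their starts lie 42 bases apart on opposite strands. The promoter of Mrps11 (chr7:78782881-78783180, plus strand, GRCm38.p6) is shown since it holds both starts, with a YY1 match and a GC box in capitals. The YY1 match was counted for Mrps11 only, since the promoter taken for Mrpl46 held a GC box and TATAAA but no YY1 match.
Mrps11: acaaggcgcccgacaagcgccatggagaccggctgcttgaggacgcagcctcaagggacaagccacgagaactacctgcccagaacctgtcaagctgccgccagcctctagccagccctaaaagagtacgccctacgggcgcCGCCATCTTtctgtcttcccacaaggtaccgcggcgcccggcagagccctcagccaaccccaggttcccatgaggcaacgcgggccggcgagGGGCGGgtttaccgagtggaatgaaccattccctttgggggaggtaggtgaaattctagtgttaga
Mrpl46, of the central protuberance, had 45.3 and 41.7 FPKM in PFC NeuN+, 92.9 and 93.8 in PFC NeuN-, 23.0 and 21.96 in cerebellum NeuN+, and 35.3 and 37.4 in cerebellum NeuN-. Like Mrps11 it was lower in NeuN+ in PFC (-0.85 ± 0.06, beside -1.08) and in cerebellum (-0.67 ± 0.06, beside -0.77), and lower in cerebellum than in PFC in both gates. Mrps11 had 15.5 and 16.0 FPKM in cerebellum NeuN+ and 27.3 and 27.9 in cerebellum NeuN-. The pair was chosen for display after its values were seen. Across the 25 pairs whose partner was tested, where this pair is counted from each side, the signs of member and partner were the same for 13 in PFC, 18 in cerebellum, 18 in NeuN+ and 11 in NeuN- between regions.

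Mrps27 and Ptcd2, which start 108 bases apart, also had like values. Ptcd2 encodes a mitochondrial RNA-binding protein. Mrps27 had 33.8 and 33.4 FPKM in PFC NeuN+, 37.7 and 36.8 in PFC NeuN-, 20.7 and 20.7 in cerebellum NeuN+, and 17.6 and 15.9 in cerebellum NeuN-. For Ptcd2 the values were 30.7 and 27.6, 29.3 and 34.9, 18.5 and 18.9, and 16.2 and 14.1. In NeuN+ the genes changed between regions by -0.69 and -0.63, and in NeuN- by -0.89 and -0.82. Mrps12 and Sars2, which start 147 bases apart, did not go together: in NeuN+ they changed between regions by -0.50 and 0.98. The promoter of Mrps27 (chr13:99344536-99344835, plus strand) is given with its ETS and YY1 matches in capitals.
Mrps27: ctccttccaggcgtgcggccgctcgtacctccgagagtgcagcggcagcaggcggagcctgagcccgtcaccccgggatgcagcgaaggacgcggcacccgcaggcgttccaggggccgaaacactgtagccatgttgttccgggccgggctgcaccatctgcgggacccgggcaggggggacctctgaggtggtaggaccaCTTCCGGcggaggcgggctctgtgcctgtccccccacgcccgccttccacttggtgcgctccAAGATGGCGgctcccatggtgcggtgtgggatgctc

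**Figure D5:**
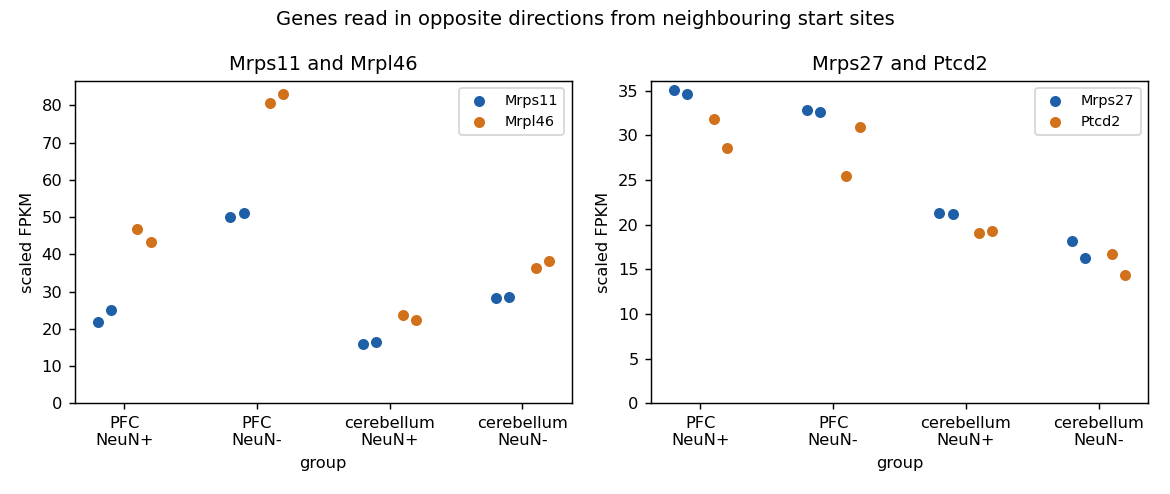
Scaled FPKM in each of the 2 libraries of each group for Mrps11 and Mrpl46 (left) and for Mrps27 and Ptcd2 (right), each pair read in opposite directions from nearby starts. Mrps11 and Mrpl46 have the same order of groups except that PFC NeuN+ and cerebellum NeuN- change places, and Mrps27 and Ptcd2 are higher in PFC.

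The 7 promoters with the NRF1 motif were those of Mrpl9, Mrpl10, Mrpl17, Mrpl22, Mrpl32, Mrpl39 and Mrps18b. Their median log2 change in PFC was 0.101, against -0.374 for the 61 matched genes without it, and in cerebellum 0.294 against 0.159. Mrpl9, Mrpl10 and Mrpl39 are 3 of the 6 genes that were higher in NeuN+ in both regions, and their promoters are printed for that reason, with the motif in capitals. With FPKM unscaled, none of the 3 was called higher in PFC. Other genes with the motif went the other way. Mrpl17 (-0.50 in PFC and -0.45 in cerebellum) and Mrpl22 (-0.26 and -0.62) were lower in NeuN+ in both regions. Mrps18b was lower in PFC and higher in cerebellum (-0.36 and 0.32), and Mrpl32 was called in cerebellum only, as higher. The difference in medians was seen after the values were known and carries no test. The promoters are at chr3:94443086-94443385 (plus strand), chr11:97041332-97041631 (plus strand) and chr16:84735195-84735494 (minus strand).
Mrpl9: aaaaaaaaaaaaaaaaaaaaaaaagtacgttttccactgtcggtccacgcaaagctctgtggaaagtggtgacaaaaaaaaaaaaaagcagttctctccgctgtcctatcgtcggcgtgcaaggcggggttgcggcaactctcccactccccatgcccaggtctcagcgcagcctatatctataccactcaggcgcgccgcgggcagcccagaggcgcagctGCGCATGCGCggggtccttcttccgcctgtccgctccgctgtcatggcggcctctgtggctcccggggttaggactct
Mrpl10: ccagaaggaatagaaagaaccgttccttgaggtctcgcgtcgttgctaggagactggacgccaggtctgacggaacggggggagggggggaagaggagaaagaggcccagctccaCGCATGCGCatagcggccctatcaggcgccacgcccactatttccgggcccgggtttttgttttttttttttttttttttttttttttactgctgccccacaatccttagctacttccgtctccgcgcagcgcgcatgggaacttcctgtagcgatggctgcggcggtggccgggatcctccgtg
Mrpl39: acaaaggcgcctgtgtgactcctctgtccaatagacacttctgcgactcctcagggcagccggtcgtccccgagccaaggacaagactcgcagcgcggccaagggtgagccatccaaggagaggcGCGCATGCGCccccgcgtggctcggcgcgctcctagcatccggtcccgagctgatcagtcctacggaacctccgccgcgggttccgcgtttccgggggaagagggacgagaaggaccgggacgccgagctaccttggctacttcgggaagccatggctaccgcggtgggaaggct
Mrpl9 and Mrpl39 hold the motif on both strands, as the palindromic form, and Mrpl10 on the reverse strand. For the ETS motif and the GC box the PFC medians were closer: -0.361 with and -0.329 without the ETS motif, and -0.377 with and -0.283 without the GC box. The 8 genes with the YY1 motif had a PFC median of -0.586, against -0.346 for the 60 without it. In the 5 genes with TATAAA (Mrpl16, Mrpl46, Mrpl48, Mrps17 and Mrps24) it was -0.810, against -0.330 for the 63 without it.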

How the data were processed

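RNA was read in 8 libraries of NeuN-sorted nuclei from 1 mouse. Per the file headers, the authors deposited FPKM from Cufflinks, with 1 table of genes for each library. Tools named in the submitters' processing notes, without roles, are Bowtie 1.1.1, TopHat2 2.1.1, Trim Galore 0.3.7, Bismark and Cufflinks; the mouse build is mm9. Not given in the sources used here are the version of Cufflinks, the annotation, the library kit, the use of strand and the dissection of prefrontal cortex. FPKM are not counts, so no count test was run; fragments of overlapping genes or pseudogenes may be shared.

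FPKM were multiplied by median-of-ratios factors (0.869 to 1.036) from the 9109 features that reached 1 FPKM in every library. A feature was tested where 2 or more libraries reached 1 FPKM. The model was limma 3.58.1 (R 4.3.3) on log2(scaled FPKM + 1) with a mean for each group. It had a mean-variance trend and 4 residual degrees of freedom. The model was also run on data simulated with the spread of these libraries, and that result is not given here. The pseudocount understates changes of low genes. Tests were two-sided, with calls at a Benjamini-Hochberg adjusted p under 0.05 over all features of a comparison. Values after ± are standard errors unless named SD. Deposited FPKM are quoted per library, unscaled; log2 changes and sums are scaled. Named genes were the 5 largest called changes in each direction per comparison where the higher group averaged 5 scaled FPKM or more, the 5 highest genes of each subunit, genes called in opposite directions, the Mrps18 paralogs, the stalk genes and Mrps36, and up to 3 per further list and comparison; Mrps27, its neighbours and the promoters shown were picked after their values were seen. The members and lists were chosen with earlier results of these data known. Cytosolic ribosomal and oxidative phosphorylation genes were taken by symbol pattern. Alternatives were other scalings, a pseudocount of 0.1, other filters, no trend, the compared groups alone, a replicate block and leaving out each library. Table coordinates are mm9 with 1 added to the start; promoters are RefSeq GRCm38.p6, and coordinates of the builds were not mixed.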

Additional observations from a re-analysis of the deposited data

Results flagged for a closer look

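The NeuN+ to NeuN- change differed between cerebellum and PFC, by the test of the difference itself in limma, for 45 genes in the positive direction and 8 in the negative. Over all features tested, 33.1% were called in the positive direction and 37.0% in the negative. Among the named genes the differences (cerebellum minus PFC, log2 scale) were 1.749 for Mrpl28, 1.567 for Mrpl48, 1.525 for Mrps30, 1.479 for Mrpl23 and 1.461 for Mrpl36. On the negative side they were -0.887 for Mrpl44, -0.706 for Mrps6, -0.597 for Mrpl41, -0.496 for Mrps5 and -0.453 for Mrps17. These 10 genes are those with the largest called differences in each direction. All 10 were called in the same direction under each of the 4 scalings.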

How the results depend on the processing

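Calls of members moved with library scaling and, in cerebellum and PFC alike, with the libraries left out. Higher calls in PFC NeuN+ numbered 7, and 2 with FPKM unscaled, 16 with a common sum and 16 with quantile normalization; lower calls fell from 52 to 34 with a common sum. Higher calls in cerebellum NeuN+ numbered 43 under each of the 4 scalings and 33 to 43 when each library was left out, and lower calls 15 to 16 and 11 to 16. In NeuN+ between regions, lower calls went from 30 to 19 with quantile normalization. In NeuN- between regions, higher calls went from 10 to 5 unscaled, 18 with a common sum and 17 with quantile normalization, and ranged from 6 to 10 when each library was left out (6 without replicate 2 of cerebellum NeuN-). Negative differences between the regions went from 8 to 5 unscaled and ranged from 5 to 7 with a library left out (5 without replicate 1 of PFC NeuN+). A group left with 1 library is assumed to vary like the others. Shares of all features were not taken for these alternatives, so their counts have no background. The large to small ratio in PFC NeuN+, PFC NeuN-, cerebellum NeuN+ and cerebellum NeuN- was 1.854, 1.881, 1.755 and 1.668 by structure, 0.931, 0.961, 0.975 and 0.871 as a ratio of medians, and 1.720, 1.735, 1.817 and 1.693 without Mrpl27 and Mrps21. The 300 called changes of single members were recomputed in 5047 alternatives: 4701 kept direction and side of the threshold, 323 kept direction only and 23 reversed. Of the 323, each library left out gave 20 to 32, a common sum 45, quantile normalization 32, FPKM unscaled 11 and the replicate block 4. All 23 reversals came with a scaling. In PFC NeuN+ against NeuN- they were Mrpl37 (-0.058) and Mrpl39 (-0.004) unscaled, Mrpl35 (0.006) with a common sum, and Mrpl20 (0.011) and Mrps12 (0.054) with quantile normalization. In NeuN- between regions they were Mrpl23 unscaled (-0.013), with a common sum Mrpl10 (0.022), Mrpl33 (0.049), Mrpl54 (0.139), Mrps10 (0.015), Mrps12 (0.015), Mrps18c (0.027), Mrps22 (0.014) and Mrps35 (0.06), and with quantile normalization Mrpl18 (0.041), Mrpl33 (0.119), Mrpl54 (0.193), Mrps10 (0.023), Mrps12 (0.093), Mrps17 (0.002) and Mrps18c (0.104). For the difference between regions they were Mrpl2 (-0.015) with quantile normalization and Mrps12 (0.027) unscaled. The cause was not tested. With the replicate number as a block, the counts higher and lower were 8 and 50 in PFC, 45 and 17 in cerebellum, 32 and 29 in NeuN+, 10 and 58 in NeuN-, and 45 and 9 for the difference. Same-numbered libraries did not deviate together (correlations of -0.045 to 0.034 over group pairs), so they share only a number. Depth could not be read from FPKM; the deposited intervals limit low genes most.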
